A study of Mus musculus with 12 samples.

Results

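The 10 genes described here are known as products of neutrophils or as signals that call them in, and they were taken by symbol from the 38293 genes of the count table. The 5 granule and cytosolic genes are S100a8, S100a9, Mmp8, Mmp9 and Retnlg. The 2 receptor genes are Csf3r and Cxcr2, and the 3 chemoattractant genes are Cxcl1, Cxcl2 and Cxcl5. All 10 passed the filter on low counts and were tested. Healthy C57BL/6J mice had their thorax opened under anaesthesia for 2 injections of 10 µl into the heart muscle, and RNA of the left ventricle was sequenced 3 days later. The 3 groups of 4 libraries received the Upy-PEG hydrogel with antimiR-195 (an inhibitor named for the microRNA miR-195), the Upy-PEG hydrogel without drug, or PBS (saline) without drug. All 3 groups had the surgery and the injections, and no uninjected heart was analysed here. The labels give no sex, age, batch or pairing and do not say that each library is a separate animal, so p-values measure only the spread between these libraries.

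Neutrophils are short-lived white blood cells that leave the blood early after tissue injury. Injured tissue and resident macrophages release CXC chemokines, of which CXCL1, CXCL2 and CXCL5 bind the receptor CXCR2 on mouse neutrophils and direct their migration, while the cytokine G-CSF acts through CSF3R on their production and survival. Neutrophils store S100A8 and S100A9 in the cytosol and matrix-cutting enzymes in granules. In the injured heart they arrive before most monocytes, and several of these genes are also used by other cells: macrophages make Mmp9, Cxcl1 and Cxcl2, and monocytes carry Csf3r.

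The mature mouse miRNA that the drug is named for is printed because the 2 hydrogel groups differ by its inhibitor. Its seed, bases 2 to 8, is in capitals, and the sequence and its position, chr11:70235062-70235082 on the + strand, are from RefSeq (GRCm38.p6).
mmu-miR-195a-5p: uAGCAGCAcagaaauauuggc
None of the 10 genes held a match to this seed of 7 bases in its longest annotated 3′ region (0 of 10), against 24.78% of all genes searched (3300 of 13317). The regions of the 10 ran from 68 bases in S100a8, 114 in S100a9 and 152 in Retnlg to 1818 in Cxcr2. A short region has less room for a match, and the 2 shares were not matched for length. A shorter match of 6 bases was found in Cxcl2 and in Cxcl5, 1 each. A match is a description of letters only, and its absence says nothing of what the inhibitor did.

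Library totals ran between 22353241 and 30278621 counted reads, with 18668 to 19740 genes detected. AntimiR-195 libraries 2 and 3 stood apart on the first principal component (35.1% of the variance), at -60.2 and -40.7 against -8.48 to 33.4 in the other libraries. They also had the lowest slopes of log2 level on log2 gene length, -0.229 and -0.135 against -0.0415 to 0.122, so shorter genes had relatively higher levels there on average. S100a8 and S100a9 are the shortest of the 10, at 392 and 522 bases by the lengths behind the RPKM. AntimiR-195 libraries 2 and 3 also had the most alignments that were not unique, 0.921 and 0.893 per counted read. The other libraries had 0.579 to 0.749. What made these libraries differ was not tested. PBS library 1 had 12.3% of its reads on mitochondrial genes, and the other PBS libraries had 18.7% to 19.5%. AntimiR-195 library 2 had 14.8%, against 18.7% to 21.7% in the rest of its group, and the Upy-PEG libraries had 16.6% to 17.9%. On the second principal component (22.2% of the variance) Upy-PEG libraries 1 and 2 were lowest, at -47.5 and -24.7. The other libraries lay between -10.9 and 28.5 on it.

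Levels are given as CPM, read counts relative to the TMM-scaled library size, which compare a gene between libraries. Genes were compared with each other on the deposited RPKM, which also divide by gene length. On the RPKM scale S100a9 had the highest mean level of the 10 in all 3 groups, followed by S100a8, Cxcl5, Cxcl1 and Csf3r in the same order. S100a9 averaged 11.1 ± 7.12 RPKM with antimiR-195, 15.5 ± 6.49 RPKM with Upy-PEG, and 8.47 ± 6.73 RPKM with PBS (SD over 4 libraries each), and S100a8 averaged 8.34 ± 5.85, 11.9 ± 5.87 and 6.32 ± 3.74 RPKM in the same groups. Within each group the libraries of these 2 genes overlapped. With Upy-PEG the RPKM of Cxcl5 (6.05 to 7.67) lay below those of S100a8 (7.69 to 20.6) and above those of Cxcl1 (3.01 to 5.62), while in the antimiR-195 and PBS groups all neighbours among the 5 overlapped. The lowest mean RPKM levels were 0.290 ± 0.179 for Cxcl2 with antimiR-195, 0.575 ± 0.102 for Cxcr2 with Upy-PEG and 0.255 ± 0.122 for Mmp8 with PBS. Counts behind single values ran from 2 reads, for Cxcl2 and Retnlg in 1 antimiR-195 library each, to 420 reads for Csf3r in 1 Upy-PEG library.

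The defining marker of mouse neutrophils, Ly6g, had 0 counts over the 4 antimiR-195 libraries, 3 over the Upy-PEG libraries and 0 over the PBS libraries. The granule genes of neutrophil precursors Mpo, Elane, Ctsg, Camp, Ngp and Ltf were all under the filter for testing. Mpo, the peroxidase of primary granules, summed to 4 counts with antimiR-195, 13 with Upy-PEG and 12 with PBS. Of 28 further genes of neutrophil identity and granules, 13 could be tested and 1, Csta1, had no count in any library. The name neutrophil genes thus rests on where these genes are known to be used, not on Ly6g. In whole tissue, fewer cells of a type and less RNA per cell cannot be told apart.

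S100a8 and S100a9 encode the 2 subunits of calprotectin, the abundant calcium- and zinc-binding protein of neutrophil cytosol. S100a8 (ENSMUSG00000056054, chr3:90668978-90670035, + strand) measured 1.16, 5.12, 6.06 and 1.51 CPM in antimiR-195 libraries 1 to 4, against 2.64, 3.44, 8.02 and 3.84 CPM in the Upy-PEG libraries and 2.05, 1.48, 1.79 and 4.66 CPM in the PBS libraries. AntimiR-195 libraries 2 and 3, Upy-PEG library 3 and PBS library 4 were high, and all 3 groups overlapped. The log2 fold change was 0.84 ± 0.53 (SE) for Upy-PEG over PBS (edgeR, adjusted p = 0.560) and -0.37 ± 0.52 for antimiR-195 over Upy-PEG (adjusted p = 0.736). Without antimiR-195 libraries 2 and 3 antimiR-195 over Upy-PEG stood at -1.73, and antimiR-195 over PBS, 0.46 with all libraries, stood at -0.89. Those were the highest of their group, so a lower value was bound to follow, and only antimiR-195 libraries 1 and 4 remained. The same holds where this fit is given for S100a9, Mmp9, Retnlg and Cxcl5. Without Upy-PEG library 3, antimiR-195 over Upy-PEG was 0.05 and Upy-PEG over PBS 0.41, and without PBS library 4 Upy-PEG over PBS was 1.32.

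S100a9 (ENSMUSG00000056071, chr3:90692632-90695721, - strand) measured 2.88, 7.27, 11.5 and 3.02 CPM in antimiR-195 libraries 1 to 4, against 5.28, 6.21, 13.1 and 6.35 CPM with Upy-PEG and 3.39, 2.33, 2.41 and 9.68 CPM with PBS. The libraries that were high for S100a8 were the high ones here too. Its log2 fold change was 0.79 ± 0.52 for Upy-PEG over PBS (edgeR, adjusted p = 0.579) and -0.32 ± 0.51 for antimiR-195 over Upy-PEG (adjusted p = 0.768). Without antimiR-195 libraries 2 and 3, antimiR-195 over Upy-PEG was -1.38, and antimiR-195 over PBS, 0.46 with all libraries, was -0.59. Upy-PEG over PBS was 1.498 without PBS library 4 and 0.43 without Upy-PEG library 3, where antimiR-195 over Upy-PEG was 0.03.

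Mmp8, the collagenase of neutrophil granules, was the member with the smallest p both for Upy-PEG over PBS and for antimiR-195 over Upy-PEG. Mmp8 (ENSMUSG00000005800, chr9:7558456-7568485, + strand) measured 0.603, 0.732, 0.782 and 0.929 CPM in antimiR-195 libraries 1 to 4, against 1.21, 1.85, 1.98 and 1.66 CPM with Upy-PEG and 0.261, 0.636, 0.999 and 0.637 CPM with PBS. All 4 Upy-PEG libraries lay above every library of both other groups, which overlapped each other. The fitted fold was 2.67 for Upy-PEG over PBS (log2 1.42 ± 0.33, 95% interval 0.68 to 2.15), with an unadjusted p of 0.000696 and an edgeR adjusted p of 0.0972. This missed the threshold of 0.05, as did antimiR-195 over Upy-PEG, log2 -1.13 ± 0.32 (unadjusted p = 0.00365, edgeR adjusted p = 0.364). On the same libraries Mmp8 passed for Upy-PEG over PBS with DESeq2 (log2 1.43, adjusted p = 0.00600), with limma voom and sample weights (1.31, adjusted p = 0.0158) and in edgeR with the length slope of the libraries added to the fit (1.45, adjusted p = 0.0444), and over all 23 other fits the adjusted p ran between 0.00600 and 0.321. Its counts were small, 13 to 24 reads with antimiR-195, 39 to 56 with Upy-PEG and 8 to 24 with PBS.

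Mmp9 encodes gelatinase B, stored in neutrophil granules and also made by macrophages. Mmp9 (ENSMUSG00000017737, chr2:164940780-164955850, + strand) measured 2.00, 3.14, 5.96 and 2.28 CPM with antimiR-195, against 3.45, 5.06, 4.52 and 7.09 CPM with Upy-PEG and 2.05, 2.04, 4.16 and 5.06 CPM with PBS. The groups overlapped, with 3 of 4 antimiR-195 libraries under the lowest Upy-PEG library. On the log2 scale the difference was 0.60 ± 0.37 for Upy-PEG over PBS (edgeR, adjusted p = 0.556) and -0.59 ± 0.37 for antimiR-195 over Upy-PEG (adjusted p = 0.459). AntimiR-195 over Upy-PEG was -1.03 without antimiR-195 library 3, -1.22 without antimiR-195 libraries 2 and 3 and -0.38 without Upy-PEG library 4, where Upy-PEG over PBS was 0.39.

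Retnlg encodes a resistin-like protein made by mouse neutrophils. Retnlg (ENSMUSG00000022651, chr16:48872621-48874496, + strand) measured 0.232, 0.516, 0.587 and 0.0774 CPM with antimiR-195, against 0.559, 0.165, 2.70 and 0.443 CPM with Upy-PEG and 1.11, 0.509, 0.333 and 0.637 CPM with PBS. Upy-PEG library 3 held 68 of the 103 Retnlg reads of its group, so the group mean rests on it. The log2 fold change for Upy-PEG over PBS was 0.52 ± 0.70 with it and -0.73 without it, and antimiR-195 over Upy-PEG was -1.44 ± 0.77 with it (edgeR, adjusted p = 0.405) and -0.19 without it. Without antimiR-195 libraries 2 and 3 it was -2.62.

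Csf3r, the receptor for G-CSF, was the second member whose antimiR-195 and Upy-PEG libraries did not overlap. Csf3r (ENSMUSG00000028859, chr4:126024550-126044440, + strand) measured 5.01, 7.10, 7.04 and 6.23 CPM with antimiR-195, against 13.1, 11.8, 8.17 and 12.7 CPM with Upy-PEG and 5.47, 4.07, 6.74 and 11.5 CPM with PBS. All antimiR-195 libraries lay below all Upy-PEG libraries, and PBS library 4 reached into the Upy-PEG range. In log2 terms Csf3r was at -0.85 ± 0.27 for antimiR-195 over Upy-PEG (unadjusted p = 0.00653, edgeR adjusted p = 0.364) and 0.72 ± 0.26 for Upy-PEG over PBS (unadjusted p = 0.0166, edgeR adjusted p = 0.240). Leaving out any 1 library kept the first between -0.996 and -0.77 and the second between 0.53 and 1.07.

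Cxcr2 encodes the receptor through which all 3 of the chemokines act. Cxcr2 (ENSMUSG00000026180, chr1:74153989-74161246, + strand) measured 0.557, 0.473, 2.15 and 0.619 CPM with antimiR-195, against 1.58, 1.49, 1.43 and 2.11 CPM with Upy-PEG and 0.424, 0.764, 1.08 and 2.95 CPM with PBS. AntimiR-195 library 3 and PBS library 4 were far above the rest of their groups, and the Upy-PEG libraries lay close together. Fitted log2 fold changes were -0.82 ± 0.56 for antimiR-195 over Upy-PEG (edgeR, adjusted p = 0.487) and 0.35 ± 0.54 for Upy-PEG over PBS (adjusted p = 0.848). Without antimiR-195 library 3 the first was -1.58, and without PBS library 4 the second was 1.14. Its relative Cxcr1 summed to 1 count with antimiR-195, 7 with Upy-PEG and 0 with PBS, and the ligand of CSF3R, Csf3, to 0, 2 and 0 counts.

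The chemokine genes Cxcl1 and Cxcl2 lie next to each other on chromosome 5, with Cxcl5 in the same cluster. Their upstream DNA is printed because both carry the same match to a site of NF-kB, the transcription factor through which inflammatory cytokines switch on these genes. The stretches run from base -110 to base -30 relative to the RefSeq start of each gene (GRCm38.p6, + strand), Cxcl1 at chr5:90891135-90891215 and Cxcl2 at chr5:90903789-90903869, and the match is in capitals.
Cxcl1: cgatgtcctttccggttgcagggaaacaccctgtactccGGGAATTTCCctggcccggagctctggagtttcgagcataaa
Cxcl2: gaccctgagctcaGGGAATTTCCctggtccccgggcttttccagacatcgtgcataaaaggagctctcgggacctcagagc
The match starts at base -71 in Cxcl1 and at base -97 in Cxcl2. The search used this 10-base kB motif with the base after GGGA left free, on both strands of 300 bases around the start, and 0.411% of 32851 RefSeq promoters held it. Of the 8 members with a promoter among these, Cxcl1 and Cxcl2 were the 2 that held it. Mmp9 and Cxcl5 had no promoter there and were not searched. The letters TTGCNNAA, a form of the C/EBP site, were in Mmp8, Retnlg and S100a9 (3 of 8, against 10.8% of all promoters), GAGGAA, a form of the PU.1 site, in 5 of 8 (28.3% of all), and TATAAA in 3 of 8 (13.6% of all). A match in these letters does not show that a factor was bound.

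Cxcl1 (ENSMUSG00000029380, chr5:90891241-90893115, + strand) measured 1.76, 2.58, 3.52 and 3.10 CPM with antimiR-195, against 4.07, 2.68, 5.32 and 2.92 CPM with Upy-PEG and 1.92, 2.33, 2.21 and 6.01 CPM with PBS. The highest Cxcl1 level of all was in PBS library 4. The log2 fold change for Upy-PEG over PBS was 0.26 ± 0.36 (95% interval -0.54 to 1.07, edgeR adjusted p = 0.821), 0.80 without PBS library 4 and 0.06 without Upy-PEG library 3. AntimiR-195 over Upy-PEG was -0.45 ± 0.36 (adjusted p = 0.549, edgeR).

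Cxcl2 (ENSMUSG00000058427, chr5:90903871-90905938, + strand) measured 0.0928, 0.258, 0.587 and 0.348 CPM with antimiR-195, against 1.06, 1.32, 0.357 and 0.443 CPM with Upy-PEG and 0.358, 0.382, 0.624 and 0.637 CPM with PBS. Upy-PEG libraries 1 and 2 were high and libraries 3 and 4 were within the range of the other groups. AntimiR-195 over Upy-PEG was -1.32 ± 0.51 on the log2 scale, with an unadjusted p of 0.0214 and an edgeR adjusted p of 0.364. Upy-PEG over PBS was 0.69 ± 0.47 (edgeR, adjusted p = 0.5995), and 0.34 without Upy-PEG library 2. Cxcl1 and Cxcl2 are close copies of each other. In the deposited counts, reads that aligned to several places have a row apart from the genes. Whether any of them were also counted to these 2 genes is not given in the sources used here.

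Cxcl5 (ENSMUSG00000029371, chr5:90759360-90761624, + strand) encodes the third CXCR2 ligand and had the highest mean RPKM of the 3 in each group, although Cxcl1 lay above it in antimiR-195 libraries 1 and 4 and PBS libraries 2 and 3. It measured 1.72, 10.3, 13.8 and 4.37 CPM with antimiR-195, against 11.1, 9.55, 10.8 and 9.79 CPM with Upy-PEG and 7.72, 3.31, 3.83 and 16.1 CPM with PBS. The Upy-PEG libraries varied least, with a coefficient of variation of 7.40%, against 73.0% with antimiR-195 and 76.3% with PBS. The log2 fold change was -0.45 ± 0.54 for antimiR-195 over Upy-PEG (edgeR, adjusted p = 0.688) and 0.41 ± 0.53 for Upy-PEG over PBS (adjusted p = 0.812). Without antimiR-195 libraries 2 and 3 the first was -1.74, and without PBS library 4 the second was 1.05.

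**Figure D1:**
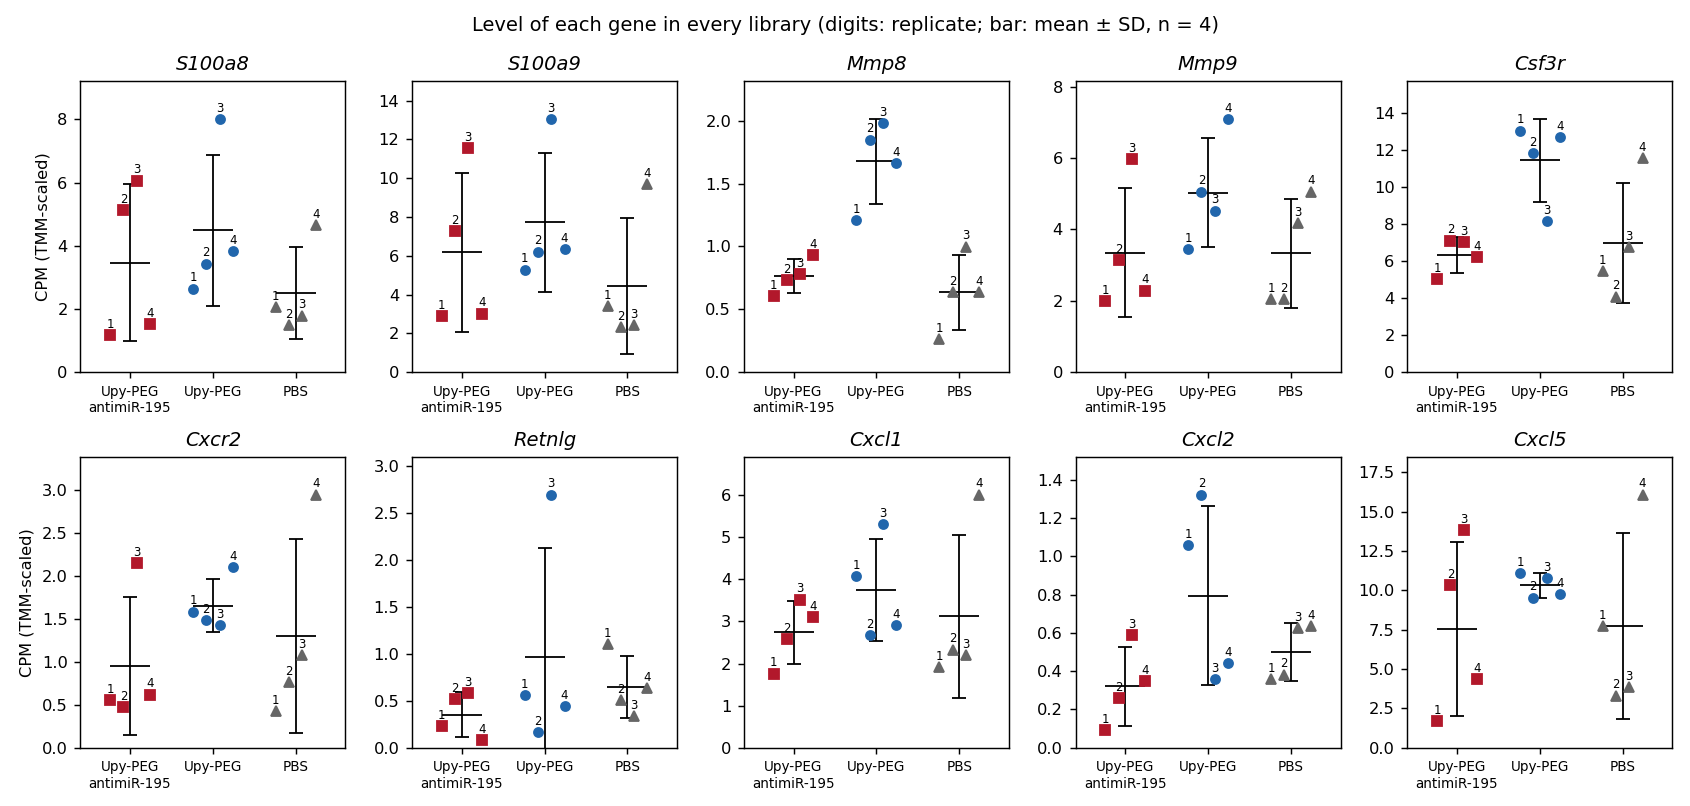
Level in CPM (vertical axis, linear, from 0) of each of the 10 genes in every library of Upy-PEG antimiR-195 (red squares), Upy-PEG (blue circles) and PBS (grey triangles), with digits for the replicate and black bars for the mean and SD (n = 4). The 4 Upy-PEG libraries stand above all others for Mmp8, between 1.21 and 1.98 CPM, while antimiR-195 libraries 2 and 3, Upy-PEG library 3 and PBS library 4 are the high ones for S100a8 and S100a9.

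Set side by side, all 10 genes had higher fitted levels in Upy-PEG than in PBS hearts, and none passed the test. For Upy-PEG over PBS, edgeR called 0 of the 10 at an adjusted p under 0.05, against 0% of the 14770 genes tested, and 44.7% of all genes had a log2 fold change above 0. The median log2 fold change of the 10 was 0.64, against -0.03 over all genes. At an unadjusted p under 0.05 there were 2 higher members, Mmp8 and Csf3r, against 9.33% of all genes, where 3.83% of all genes were lower. For 1 member, Mmp8, all Upy-PEG libraries lay above all PBS libraries, against 5.91% of all genes, and for 0 members below them, against 3.77%. Over all genes edgeR gave 1944 (13.2%) at an unadjusted p under 0.05, DESeq2 called 511 genes after adjustment and limma voom 918, each with 1 member, Mmp8, among them.

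For antimiR-195 over Upy-PEG all 10 had lower fitted levels, where 49.2% of all genes were above 0, and their median log2 fold change was -0.70 against -0.01 over all genes. None of the 10 passed (edgeR adjusted p between 0.364 and 0.768), against 0% of all genes. At an unadjusted p under 0.05 there were 3 lower members, Mmp8, Csf3r and Cxcl2, against 6.4% of all genes, and 0 higher ones, against 6.67%. For Mmp8 and Csf3r all antimiR-195 libraries lay below all Upy-PEG libraries, against 2.46% of all genes, and no member had them all above, against 1.94%. Over all genes 1930 (13.1%) had an unadjusted p under 0.05, and DESeq2 called 16 after adjustment and limma voom 0, with no member in either. This contrast and Upy-PEG over PBS share the 4 Upy-PEG libraries, so the opposite signs are not independent. With scaling by total counts only, the median over all genes moved to -0.16, and the median of the 10 to -0.86. There 5.37% of the genes at an unadjusted p under 0.05 were higher, against 51.04% with TMM, and for Upy-PEG over PBS 91.7%, against 70.9% with TMM.

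AntimiR-195 over PBS gave 4 higher and 6 lower members with a median log2 fold change of -0.09, against 0.01 over all genes, of which 50.8% were above 0. None passed, against 0% of all genes. None had an unadjusted p under 0.05, against 16.5% of all genes (2444), 8.65% higher and 7.89% lower, and none had groups that did not overlap (2.74% higher and 3.32% lower over all genes). After adjustment DESeq2 called 97 genes and limma voom 1, with no member in either. The signs rest on single libraries: 8 members were higher without PBS library 4, 2 without antimiR-195 library 3 and 1 without antimiR-195 libraries 2 and 3 together. Both hydrogel groups together over PBS gave 8 higher and 2 lower members with a median of 0.24, against -0.00 over all genes, of which 49.2% were above 0, and none passed (0% of all genes). Mmp8 alone had an unadjusted p under 0.05 there, with log2 0.85 ± 0.30 (unadjusted p = 0.0129, edgeR adjusted p = 0.226), against 8.67% of all genes higher and 6.57% lower at that level (2251 genes, 15.2%), and after adjustment DESeq2 called 380 genes and limma voom 4.

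**Figure D2:**
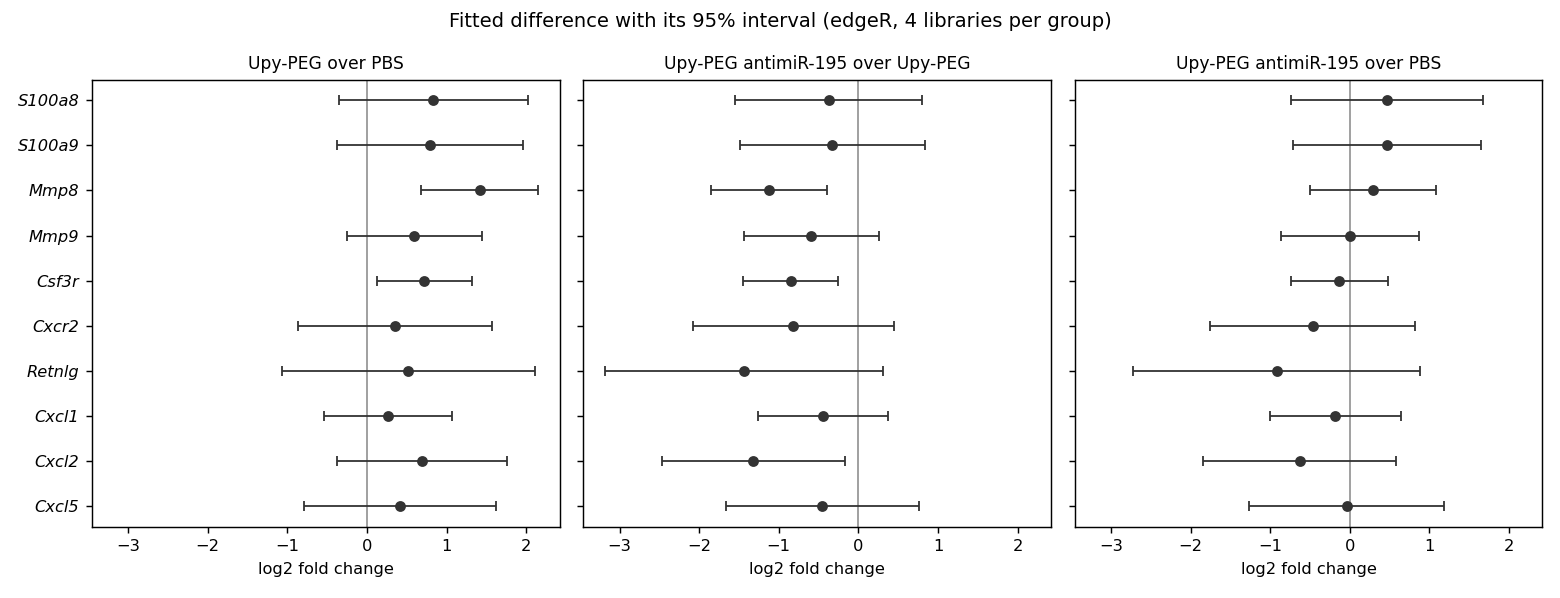
Fitted log2 fold change (horizontal axis) with its 95% interval for each of the 10 genes in 3 comparisons, from edgeR on 12 libraries with intervals from the SE and a t distribution with 9 degrees of freedom. All points lie above 0 for Upy-PEG over PBS (0.26 to 1.42) and below 0 for antimiR-195 over Upy-PEG (-1.44 to -0.32), and the intervals of Mmp8 and Csf3r leave out 0 in both, that of Cxcl2 in the second.

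Some of the members varied together between libraries. Correlations of log2 CPM over the 12 libraries were computed for all 45 pairs, and 43 had a Pearson r above 0. After Benjamini-Hochberg adjustment over the 45, permutation tests with 100000 resamples gave 15 pairs under 0.05 for Pearson and 14 for Spearman. The shuffles crossed the 3 groups, so differences between groups count in these results, and the share among pairs of other genes was not computed. Mmp8 with Csf3r, 1 of the Spearman pairs, had r = 0.619, and 0.108 with group means removed. S100a8 and S100a9, which sit close together on chromosome 3 and whose proteins pair, had r = 0.962 (permutation p = 1e-05, the smallest these permutations can give, adjusted p = 0.00045) and rho = 0.958 (permutation p = 3e-05, adjusted p = 0.00135). Without the 2 libraries farthest from the median r was 0.966, and with group means removed 0.960. The ratio of S100a9 to S100a8 on the RPKM scale ran between 1.01 and 1.86 over the 12 libraries with a median of 1.30.

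Cxcl5 followed S100a8 closely as well, with r = 0.859 (permutation p = 0.00013, adjusted p = 0.00292) and rho = 0.853 (permutation p = 0.00071, adjusted p = 0.0106). Its r was 0.888 without the 2 farthest libraries and 0.853 within groups. Mmp9 and Cxcr2 had r = 0.860 (permutation p = 0.00083, adjusted p = 0.00934) and rho = 0.839 (permutation p = 0.00116, adjusted p = 0.0121), with r = 0.833 without the 2 farthest libraries and 0.834 within groups. S100a8 passed with 4 of the 9 other members by Pearson (S100a9, Cxcl5, Mmp9 and Cxcl1). It did not with Retnlg (r = 0.584), Cxcr2 (0.567), Csf3r (0.535), Mmp8 or Cxcl2 (0.295). For Mmp8 with S100a8 r was 0.422 (permutation p = 0.172, adjusted p = 0.228) and rho 0.462 (permutation p = 0.135, adjusted p = 0.190), with r = 0.175 without the 2 farthest libraries and 0.151 within groups. Retnlg and Cxcl2 had the 2 lowest counts and the only r below 0, with each other (-0.05) and for Retnlg with Mmp8 (-0.04). These libraries share their depth and the length slopes given above, and the part of those in the correlations was not tested.

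**Figure D3:**
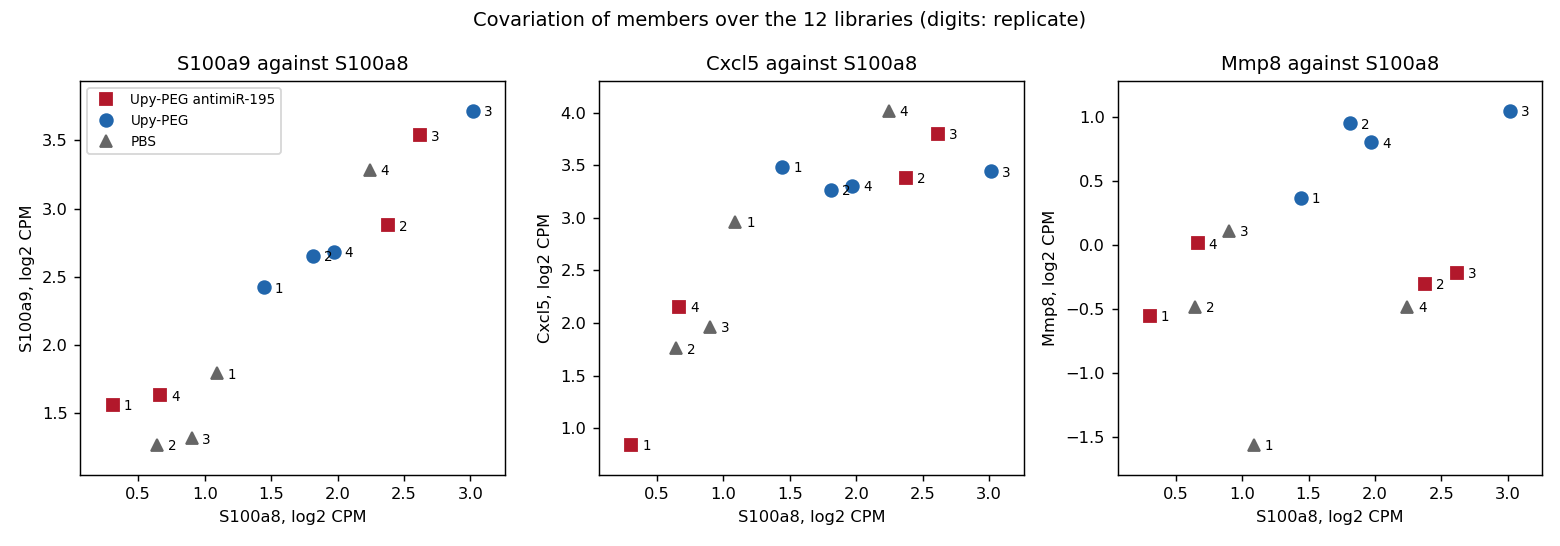
S100a9, Cxcl5 and Mmp8 (vertical axes, log2 CPM) against S100a8 (horizontal axes, log2 CPM) in the 12 libraries, Upy-PEG antimiR-195 as red squares, Upy-PEG as blue circles and PBS as grey triangles, with digits for the replicate. S100a9 (r = 0.962) and Cxcl5 (r = 0.859) rise with S100a8 across groups, while for Mmp8 (r = 0.422) antimiR-195 libraries 2 and 3 and PBS library 4 lie low at high S100a8.

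Among the other genes tested, those most alike in pattern were found by Pearson r over the 12 libraries with the mean z-score of members, given as a description. For the 7 granule, cytosolic and receptor members they were Mmp3 (r = 0.879), Fancf (0.871), Bst1 (0.860), Cklf (0.857) and Il1r2 (0.840). For the 3 chemoattractants they included Trem1 (r = 0.914), Il1b (0.896), Zfp513 (0.887) and Bach2os (0.876). Trem1 encodes an activating receptor of neutrophils and monocytes, Il1r2 a decoy receptor for interleukin 1, and Il1b the cytokine itself.

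The wider set of neutrophil genes had members in both directions and no call. Of the 13 tested of 28 other identity and granule genes, 10 were higher and 3 lower in Upy-PEG than in PBS hearts (median log2 fold change 0.39, against -0.03 over all genes), and 3 were higher and 10 lower with antimiR-195 than with Upy-PEG (median -0.39, against -0.01 over all genes). None passed in either. The 2 of lowest p for Upy-PEG over PBS were Clec4d, a C-type lectin receptor, at log2 1.06 ± 0.35 (edgeR, adjusted p = 0.199), and Lcn2, the iron-carrier binding lipocalin, at 0.86 ± 0.48 (adjusted p = 0.494). Lcn2 averaged 25.4 ± 19.03 CPM with antimiR-195, 32.1 ± 11.5 CPM with Upy-PEG, and 17.7 ± 7.63 CPM in PBS hearts (SD, n = 4 each). For antimiR-195 over Upy-PEG they were the formyl peptide receptor Fpr2 at -1.01 ± 0.60 (edgeR, adjusted p = 0.436) and Asprv1 at -1.32 ± 0.79 (adjusted p = 0.439).

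Other chemoattractants, their receptors and growth factors of granulocytes numbered 17, of which 11 were tested and Cxcl15 and Il17a had no count. In Upy-PEG over PBS hearts 9 were higher and 2 lower (median 0.43), led by C5ar1, the receptor for the complement fragment C5a, at log2 0.80 ± 0.18 (edgeR, adjusted p = 0.0971) and Alox5ap, which serves leukotriene synthesis, at 0.77 ± 0.19 (adjusted p = 0.112). With antimiR-195 over Upy-PEG 2 were higher and 9 lower (median -0.31), with Csf2rb, the shared receptor chain for GM-CSF, at -0.84 ± 0.24 and Il17ra at -0.64 ± 0.21 (edgeR, adjusted p = 0.364 each). A list of 12 genes of the signals that control the chemokines mixes cytokines, receptors and NF-kB subunits with the inhibitors Nfkbia, Tnfaip3 and Zfp36. Of these 11 were tested, 10 higher and 1 lower in Upy-PEG over PBS (median 0.25). With antimiR-195 over Upy-PEG 2 were higher and 9 lower (median -0.15), and neither count is a direction of induction. Osm and Tnf, cytokines of activated leukocytes, were at log2 1.71 ± 0.53 and 0.96 ± 0.35 for Upy-PEG over PBS (edgeR, adjusted p = 0.158 and 0.232), and none of the 11 passed. Il1r1 and Tnfrsf1a, receptors for interleukin 1 and TNF, were at -0.37 ± 0.16 and -0.15 ± 0.11 for antimiR-195 over Upy-PEG (edgeR, adjusted p = 0.367 and 0.499).

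The 11 genes of leukocyte rolling and adhesion were all tested and all higher in Upy-PEG than in PBS hearts (median 0.52), and 1 was higher and 10 lower with antimiR-195 than with Upy-PEG (median -0.68), with no call in either. At an unadjusted p under 0.05, 3 were higher in the first comparison, against 9.33% of all genes, and 5 lower in the second, against 6.4%. Itgb2, the beta chain of the leukocyte integrins, averaged 21.3 ± 3.53 CPM with antimiR-195, 36.1 ± 7.77 CPM with Upy-PEG, and 20.4 ± 5.38 CPM in PBS hearts (SD, n = 4 each), at log2 0.82 ± 0.20 for Upy-PEG over PBS (edgeR, adjusted p = 0.0999). Its partner chain Itgam averaged 14.5 ± 2.27, 27.9 ± 6.99 and 18.5 ± 6.08 CPM in the same groups, at -0.95 ± 0.23 for antimiR-195 over Upy-PEG (unadjusted p = 0.00100, edgeR adjusted p = 0.364). Both integrin chains are also carried by monocytes and macrophages.

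Markers of other cell types had fitted differences too, none past the threshold. All 13 monocyte and macrophage markers were detected and had higher fitted levels in Upy-PEG than in PBS hearts (median 0.84) and lower ones with antimiR-195 than with Upy-PEG (median -0.37), with 0 called. At an unadjusted p under 0.05, 12 of the 13 were higher in the first comparison, against 9.33% of all genes. In the second 4 were lower, against 6.4%. Their summed level ran between 483 and 945 CPM with antimiR-195, 664 and 869 with Upy-PEG, and 410 and 607 with PBS. Cd68, a macrophage lysosomal protein, was at log2 1.22 ± 0.19 for Upy-PEG over PBS (edgeR, adjusted p = 0.0809), and Adgre1, which encodes the macrophage marker F4/80, at -0.69 ± 0.19 for antimiR-195 over Upy-PEG (adjusted p = 0.364, edgeR). The part of these cells in the levels of Mmp9, Csf3r, Cxcl1 and Cxcl2 was not tested.

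Blood and muscle markers were set beside these in the same way. The 8 tested erythroid genes were all lower in Upy-PEG than in PBS hearts (median -0.94), and 7 were higher and 1 lower with antimiR-195 than with Upy-PEG (median 0.96). The medians are opposite in sign to those of the 10 genes. At an unadjusted p under 0.05, 5 erythroid genes were lower in the first comparison, against 3.83% of all genes, and 5 higher in the second, against 6.67%. Their summed level ran between 553 and 1326 CPM with antimiR-195, 258 and 558 with Upy-PEG, and 487 and 1466 with PBS. The 6 tested platelet genes were higher in Upy-PEG than in PBS (median 0.57) and had higher fitted levels with antimiR-195 than with Upy-PEG (median 0.41). Their summed level was 116 CPM in antimiR-195 library 2 and 34.2 to 52.8 CPM in the other antimiR-195 libraries, against 46.7 to 62.6 CPM with Upy-PEG, so the median of the sums was lower with antimiR-195 (43.8 CPM) than with Upy-PEG (56.1 CPM). The 10 cardiomyocyte markers were lower in Upy-PEG than in PBS hearts (median -0.30), and 8 were higher and 2 lower with antimiR-195 than with Upy-PEG (median 0.36). At an unadjusted p under 0.05, 1 cardiomyocyte marker was lower in the first comparison, against 3.83% of all genes, and 5 higher in the second, against 6.67%. Of 8 fibroblast markers 7 were higher and 1 lower in Upy-PEG than in PBS hearts (median 0.27), and 3 were higher and 5 lower with antimiR-195 than with Upy-PEG (median -0.24). Among them 4 were higher and 1 lower at an unadjusted p under 0.05 in the first comparison, against 9.33% and 3.83% of all genes. In the second 0 were higher and 2 lower, against 6.67% and 6.4%. Postn had the lowest p of the 8 in the first, at log2 1.66 ± 0.37 (edgeR, adjusted p = 0.0971). Col1a1 had it in the second, at -1.23 ± 0.28 (edgeR, adjusted p = 0.364). All 8 endothelial markers were lower in Upy-PEG than in PBS hearts (median -0.16), and 5 were higher and 3 lower with antimiR-195 than with Upy-PEG (median 0.03). None of these lists had a call, and their part in the neutrophil gene levels was not tested. The 10 markers each of mast cells with eosinophils and basophils and of T, B and NK cells had 4 and 3 genes tested, with summed levels of at most 11.7 and 4.91 CPM.

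**Figure D4:**
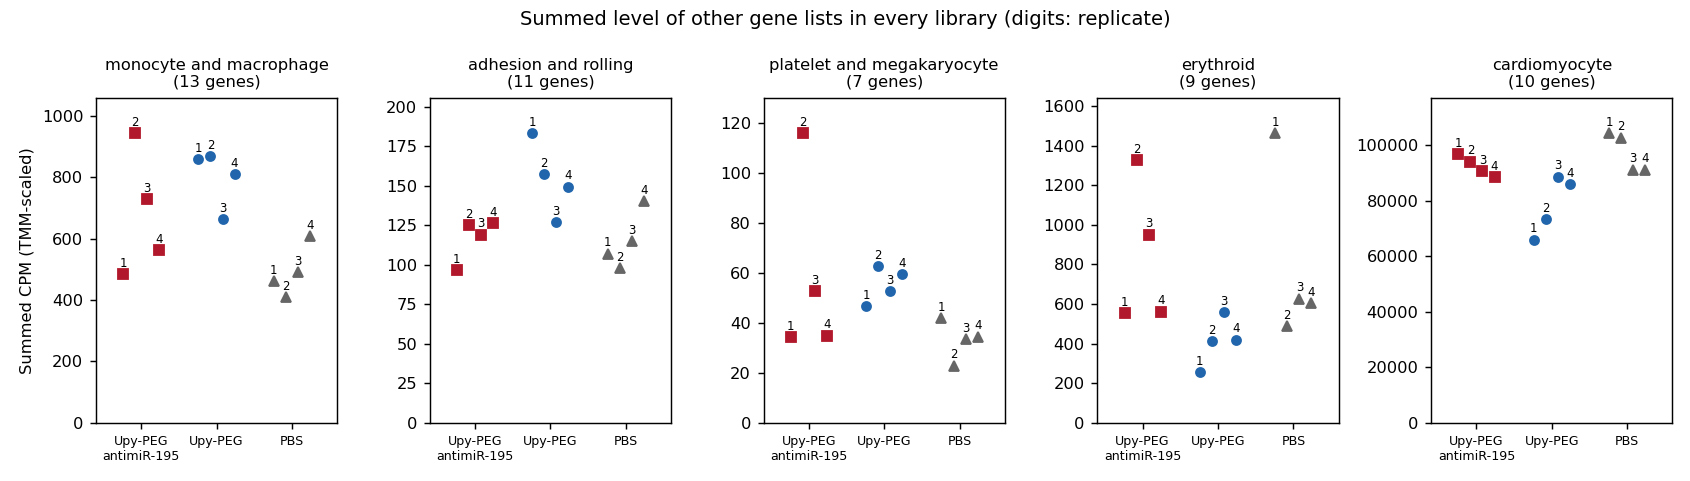
Summed CPM (vertical axes, linear, from 0) of 5 gene lists in every library, Upy-PEG antimiR-195 as red squares, Upy-PEG as blue circles and PBS as grey triangles, with digits for the replicate. The monocyte and macrophage sum is above every PBS library in all 4 Upy-PEG libraries (664 to 869 CPM, against 410 to 607 with PBS), and the erythroid sum is highest in PBS library 1 and antimiR-195 library 2.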

How the data were processed

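The authors deposited a table of raw read counts per gene, per-sample count files and an RPKM table. Per the submitters' processing notes, STAR, HTSeq, DESeq and GRCm38 were used, with no versions and no annotation release. Per the labels, RNA was extracted with TRIzol and libraries made with a stranded mRNA kit, and the strand setting of the counter is not given in the sources used here. The series count table equalled the per-sample files in 459516 of 459516 cells. Rows that name no gene were left out. Reads on no feature were 6.25% to 8.77%, and ambiguous reads 0.664% to 0.898%, of these and the counted reads together. Alignments that were not unique were 0.579 to 0.921 per counted read. Whether a read that aligned to several places enters this value once or once per place is not given in the sources used here. The deposited RPKM values were used as the authors made them, for levels between genes.

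All 12 libraries were fitted with edgeR 4.0.16 in R 4.3.3 (filterByExpr by group, TMM, quasi-likelihood test, 3 group means, 9 residual degrees of freedom), with Benjamini-Hochberg adjustment over 14770 genes at 0.05. Fold changes are log2, and a prior count of 2 went into log2 CPM. Gene coordinates and the 3′ regions searched are from GENCODE M21 on GRCm38, the miRNA and promoter sequences from RefSeq. Alternatives used DESeq2 1.42.0 and limma 3.58.1. The edgeR fit was tested on simulated data. The members and gene lists were chosen with earlier results of these data known. Named were all 10 members, list genes that passed or, with none, the 2 of lowest p, and the 5 genes most alike to each mean z-score, of which 1 is not reported here; the Cxcr1, Csf3, Mpo, Ly6g and Lcn2 values were added after they were seen.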

Additional observations from a re-analysis of the deposited data

Results flagged for a closer look

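In 5 of 30 gene and group combinations 1 library stood apart from the other 3 by Dixon's test on CPM. The test gives about 1 in 20 by chance only for independent, normally distributed values. These genes share libraries and some vary together, and the rate over all genes was not computed, so no excess can be read from the count. S100a9 was 13.1 CPM in Upy-PEG library 3, against 5.28 to 6.35 in the rest of that group, and 9.68 CPM in PBS library 4, against 2.33 to 3.39. Cxcr2 was 2.15 CPM in antimiR-195 library 3, against 0.473 to 0.619. Retnlg was 2.70 CPM in Upy-PEG library 3, against 0.165 to 0.559. Cxcl1 was 6.01 CPM in PBS library 4, against 1.92 to 2.33. In each case it was the highest library that stood apart, and 4 of the 5 were in Upy-PEG library 3 or PBS library 4.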

How the results depend on the processing

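Over alternatives other than leaving out 1 library, 430 gene values kept their sign and side of the threshold, 27 changed sign and 4 newly passed. Leaving out 1 library at a time kept 449 and turned 31. Those that newly passed were all Mmp8 for Upy-PEG over PBS: 1.43 with DESeq2, 1.31 with voom, 1.42 at a threshold of 0.10 and 1.45 with the length covariate, with 1 member called in each. The fits with the length covariate and without antimiR-195 libraries 2 and 3 were chosen after seeing the data. The causes of these differences were not tested.

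For Upy-PEG over PBS the genes called, 0 in edgeR, became 69 with no filter, 511 with DESeq2, 918 with voom, 172 with only the libraries compared, 155 at a threshold of 0.10, 349 without antimiR-195 libraries 2 and 3 and 332 with the length covariate, and 0 to 150 without 1 library (46 without Upy-PEG library 3, 150 without antimiR-195 library 2). DESeq2 called 16 for antimiR-195 over Upy-PEG. For antimiR-195 over PBS it called 97, and no filter and voom 1 each. For both hydrogel groups over PBS no filter called 6, DESeq2 380 and voom 4. Members with higher values were 2 with voom, 1 without antimiR-195 libraries 2 and 3 and 1 with the covariate for antimiR-195 over PBS, and for both hydrogel groups 3 without those libraries and 5 with the covariate. Without 1 library they ran 9 to 10 for Upy-PEG over PBS, 0 to 2 for antimiR-195 over Upy-PEG, 2 to 8 for antimiR-195 over PBS and 5 to 9 for both.

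Log2 fold changes that changed sign follow. For antimiR-195 over PBS, Mmp9 (0.0045) was -0.060 with library size alone, -0.0074 with no filter, -0.42 with voom, -0.056 and -0.030 on log2(RPKM + 0.1) and log2(RPKM + 1), -0.0037 with only the libraries compared, -0.62 without antimiR-195 libraries 2 and 3 and -0.42 with the covariate. S100a8 was -0.26 with voom, -0.89 without those libraries and -0.65 with the covariate, and S100a9 -0.59 without those libraries and -0.41 with the covariate. Retnlg for Upy-PEG over PBS was -0.37 with voom. For both hydrogel groups over PBS, voom gave Cxcl1 -0.090 and Cxcl2 -0.36, RPKM + 0.1 Cxcr2 0.12 and Cxcl2 -0.053, and RPKM + 1 Cxcr2 0.026. Leaving out antimiR-195 libraries 2 and 3 gave S100a8 -0.023, Mmp9 -0.010, Cxcl1 -0.035, Cxcl2 -0.20 and Cxcl5 -0.45, and the covariate S100a8 -0.0013, Cxcl1 -0.0069 and Cxcl5 -0.23.

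Without 1 library, Retnlg ran -0.73 to 0.93 for Upy-PEG over PBS, and S100a8 and S100a9 -0.79 to 0.047 and -0.82 to 0.034 for antimiR-195 over Upy-PEG. For antimiR-195 over PBS the ranges were -0.026 to 1.17 (S100a9), -0.42 to 0.28 (Mmp9), -0.32 to 0.22 (Csf3r), -1.23 to 0.32 (Cxcr2), -0.36 to 0.35 (Cxcl1) and -0.51 to 0.60 (Cxcl5). For both hydrogel groups they were -0.44 to 0.73 (Cxcr2), -0.83 to 0.21 (Retnlg), -0.14 to 0.57 (Cxcl1), -0.17 to 0.18 (Cxcl2) and -0.063 to 0.82 (Cxcl5). No paired analysis was possible because the labels give no replicate numbers: the numbers used here follow deposit order and only name libraries. With 2 to 68 reads a library, the values of Retnlg and Cxcl2 are limited by depth.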
